A study of Rattus norvegicus with 4 samples.

Results

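The genes described here are the rat deubiquitinase genes that the deposited annotation lists under the USP (*Usp* followed by a number), OTU (*Otub*, *Otud*) and UCH (*Uch*) names, together with *Cyld*, restricted to protein-coding genes outside the sex chromosomes. Of the 34773 genes of the table, 58 met this rule, under 57 symbols, because *Uchl3* is listed at 2 loci. They were 45 USP genes, 8 OTU genes, 4 UCH loci and *Cyld*. One of the USP names, *Usp6nl*, belongs to a GTPase-activating protein of Rab proteins that is no deubiquitinase, and it was kept because the rule goes by name. The data are 4 RNA-seq libraries. The control is the rat embryonic stem cell (ESC) line DA-5-3 carrying a *Rex1*-GFP reporter (DA-5-3 GFP, labelled WT), and each *Thop1*-KO GFP subclone (#1, #2 and #3) gave 1 library. The subclones were picked after transfection of that same line with Cas9 and sgRNAs against *Thop1*, the gene of the zinc peptidase thimet oligopeptidase, and after puromycin selection. All 4 libraries come from cells with the reporter, and by the study's methods rat ESCs grew over feeders with 2i/LIF, that is PD0325901, CHIR99021 and LIF. The study describes DA-5-3 as diploid, whereas the deposited design text calls the sequenced cells haploid. Sex and age were not given in the sources used here.

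Ubiquitin is a small protein that is joined to lysines of other proteins, singly or as chains, and different chain types send a protein to the proteasome, change its partners or start signalling. Deubiquitinases cut ubiquitin off again, release it from its precursors and recycle chains, and they fall into families by their catalytic fold, of which USP, OTU and UCH are cysteine proteases. In pluripotent cells these enzymes are known to act on ubiquitinated histones, on cell cycle and DNA repair proteins and on the turnover of transcription factors.

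The counts on genes summed to between 15405499 and 17936544 per library, and 15028 genes passed the filter on low counts. Values are given as CPM, reads on a gene scaled to library size after TMM normalization, for comparison of 1 gene between libraries, and as FPKM, which is also divided by gene length, for comparison between genes. A gene was called when its adjusted p was under 0.05 by the quasi-likelihood test of edgeR, adjusted after Benjamini and Hochberg over the 15028 genes, and "edgeR adjusted p" below means that test. The control was a single library, so the spread came from the 3 subclones alone, and for 1 library against 3 the smallest one-sided p of an exact permutation is 0.25. A difference in genotype and a difference of that 1 culture or library from the others cannot be told apart, and in bulk RNA neither can fewer cells of a type and less RNA per cell. The targeted gene *Thop1* had 109.9, 92.5 and 149.2 CPM in #1, #2 and #3 against 370.1 CPM, a log2 fold change of -1.66 (SE 0.29, edgeR adjusted p = 0.0187). All 10 ESC marker genes looked up had counts in every library, with 4642 to 5487 summed FPKM in the subclones and 4287 in the control. Of the 10, edgeR called 3 higher and 0 lower, and DESeq2 called 4 higher and 0 lower. Over all genes tested, edgeR called 8.62% higher and 5.17% lower, and DESeq2 called 21.5% of the genes it gave an adjusted p. The log2 fold changes of the 10 ESC markers were positive for 5 and negative for 5, from -0.80 to 4.30 with a median of 0.37. Of 12 fibroblast genes in the table, *Thy1*, *Lum* and *Dcn* were at 0 in all 4 libraries, and the 12 summed to 97.7, 214.8 and 126 FPKM in #1, #2 and #3 and to 81.4 in the control, with 0 of 9 tested called by edgeR and 3 under an unadjusted p of 0.05. The log2 fold change was positive for 8 of these 9, with a median of 1.11, and the control was below all 3 subclones for 7, and the part of fibroblast RNA in the results below was not tested. Of 8 primitive endoderm genes, which summed to between 2.61 and 3.89 FPKM in the 4 libraries with 1 gene at 0 in each, 0 of 6 tested were called and 3 had an unadjusted p under 0.05 (median log2 fold change 1.72).

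Deubiquitinase genes moved in both directions in the *Thop1*-KO GFP subclones. Of the 58, 53 had enough counts to be tested, and 9 of them (17.0%) were called, 6 higher and 3 lower in the subclones. Across all genes tested the called share was 13.8%, with 8.62% higher and 5.17% lower. An unadjusted p under 0.05 was found for 27 of the 53 and for 34.0% of all genes tested. *Usp22*, *Usp5*, *Usp48*, *Usp35*, *Usp12* and *Usp54* rose, and *Usp37*, *Usp24* and *Uchl5* fell. The log2 fold changes of the 53 ran from -1.73 to 4.0 with a median of 0.24, beside a median of 0.06 over all genes tested and 0.11 over protein-coding genes. The median turned to -0.10 after a correction for gene length, when that of all genes was -0.09, and the same correction gave 5 higher and 7 lower calls (1073 and 962 over all genes, against 1295 and 777 without it). With upper quartile scaling the calls were 7 higher and 5 lower (1206 and 964 over all genes), and with library size alone they were 7 and 1 (1429 and 613 over all genes). By family, 6 of 41 tested USP genes rose and 2 fell, 1 of 4 UCH loci fell, and 0 of 7 OTU genes were called by edgeR, with 3 under an unadjusted p of 0.05 and 1 called by DESeq2. The control lay below all 3 subclones for 24 of the 53 genes, above all 3 for 20 and between them for 9. Over all genes tested, 38.1% had the control below and 37.6% had it above.

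**Figure D1:**
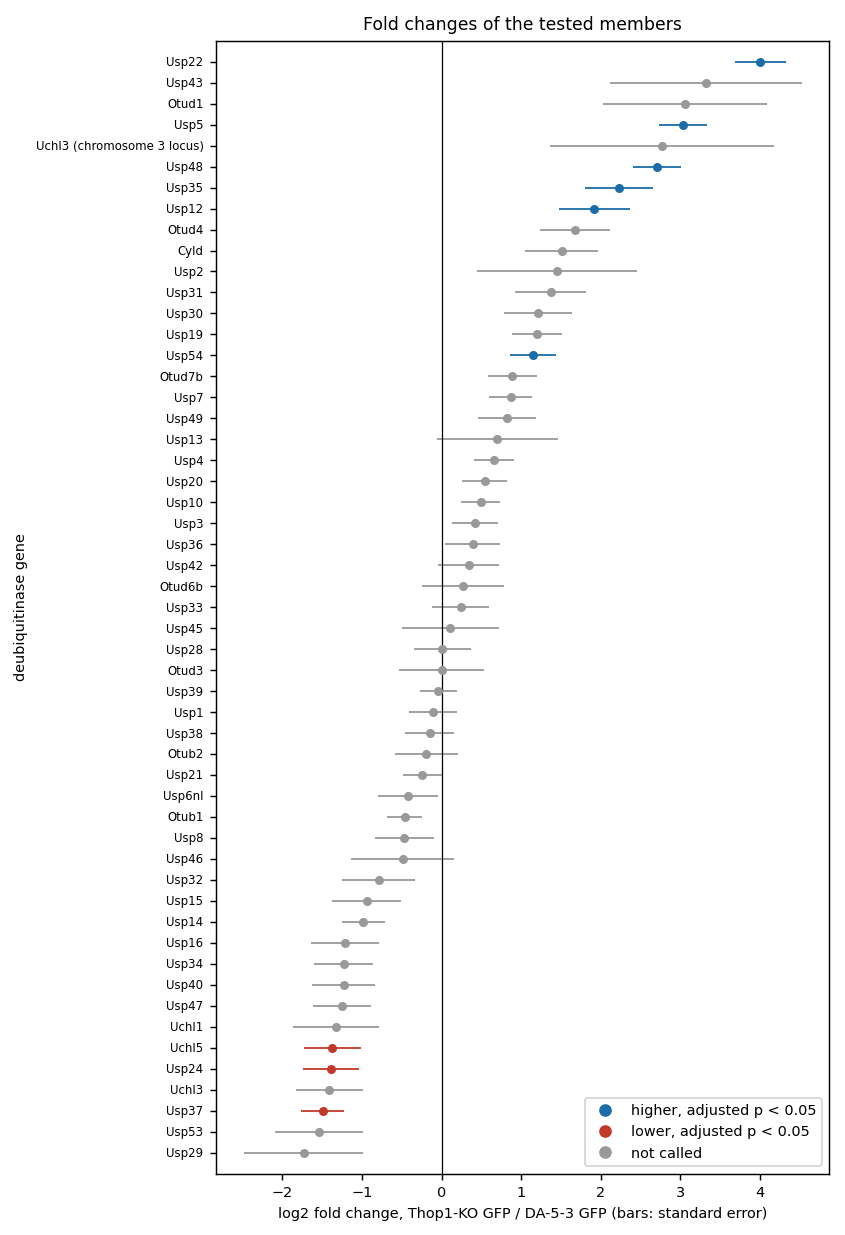
Log2 fold change of the 53 tested genes between the 3 *Thop1*-KO GFP subclones and the 1 DA-5-3 GFP library, with the standard error from edgeR's quasi-likelihood fit as bars, in order of the fold change. *Usp22* stands at the top at 4.0 and *Usp29* at the bottom at -1.73, and the 9 called genes (blue higher, red lower) include the 3 large changes with short bars, *Usp22*, *Usp5* and *Usp48*.

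*Usp22* encodes the catalytic subunit of the deubiquitinase module of the SAGA coactivator complex, which removes ubiquitin from histones H2B and H2A. The deposited annotation, whose genome build is not given in the sources used here, places it on chromosome 10 between 47429002 and 47453442, minus strand (ENSRNOG00000032492, 1921 bases of exon). Its counts were 1636 in #1, 1536 in #2 and 1697 in #3 but 86 in DA-5-3 GFP, or 97.5, 86.9, 94.5 and 5.79 CPM. The 3 subclones were close to each other (93.0 ± 5.49, SD, n = 3), and the control was 16.1-fold below their mean. The log2 fold change of 4.0 (SE 0.32, edgeR adjusted p = 0.00678) was the highest of the 53 genes. Per length, *Usp22* went from 2.97 FPKM in the control to 44.7 to 50.4 FPKM in the subclones, where it ranked among the first 5 of these genes in each.

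*Usp5*, which takes apart unanchored ubiquitin chains, stood at 110.4, 125.4 and 116.6 CPM in #1, #2 and #3 and at 14.3 CPM in DA-5-3 GFP. No subclone came near the control, and their mean of 117.5 ± 7.55 CPM (SD, n = 3) was 8.19-fold above it, with a log2 fold change of 3.03 (SE 0.30, edgeR adjusted p = 0.00678). *Usp5* lies between 157332740 and 157347803 of chromosome 4, minus strand. *Usp48*, a nuclear deubiquitinase between 155934490 and 156002721 of chromosome 5, plus strand, had 182.6, 155.6 and 145.9 CPM in the subclones but 24.6 CPM in DA-5-3 GFP. Its mean of 161.4 ± 19.0 CPM (SD, n = 3) was 6.55-fold the control (log2 fold change 2.71, SE 0.30, edgeR adjusted p = 0.00705). *Usp22*, *Usp5* and *Usp48* were the 3 genes called under each of the 12 alternatives run, with log2 fold changes of 3.98 to 4.05, 2.99 to 3.09 and 2.62 to 2.78 when 1 subclone at a time was left out.

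*Usp35* was low in all libraries, at 9.42, 11.0 and 11.97 CPM in the subclones beside 2.29 CPM in DA-5-3 GFP. It rose 4.71-fold on the means (log2 fold change 2.23, SE 0.43, edgeR adjusted p = 0.024). *Usp12*, an enzyme that works when bound to the WD-repeat proteins Wdr48 and Wdr20, had 12.6, 15.3 and 10.2 CPM in #1, #2 and #3 beside 3.37 CPM in the control. Its log2 fold change was 1.92 (SE 0.44, edgeR adjusted p = 0.0362). For both genes the control lay below all 3 subclones, as it did for 38.1% of all genes tested. For both the call was lost without #3, with an edgeR adjusted p of 0.111 and 0.105. *Usp54* stood at 135.5, 99.3 and 114.4 CPM against 52.4 CPM (log2 fold change 1.15, SE 0.29, edgeR adjusted p = 0.0463). It kept its call in 7 of the 12 alternatives, was at 0.75 with an edgeR adjusted p of 0.175 after the correction for length, and overlaps the annotated genes AC127920.1 and AC127920.3, whose reads a library made without strand marking can mix with its own.

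*Usp37*, which opposes the degradation of cyclin A during the cell cycle, fell from 61.4 CPM in DA-5-3 GFP to 18.5, 23.9 and 23.2 CPM in #1, #2 and #3. The control was 2.81-fold above the mean of 21.9 ± 2.92 CPM (SD, n = 3), and the log2 fold change was -1.49 (SE 0.27, edgeR adjusted p = 0.0211). It lies between 81716876 and 81772851 of chromosome 9, minus strand, where it overlaps *Vil1* on the other strand. *Usp24*, the longest of the tested genes with 10582 bases of exon, was at 7.51, 11.8 and 10.7 CPM against 26.2 CPM (log2 fold change -1.39, SE 0.35, edgeR adjusted p = 0.048). *Uchl5*, which binds the proteasome through Adrm1, stood at 5.19, 7.41 and 6.34 CPM against 16.3 CPM (log2 fold change -1.37, SE 0.36, edgeR adjusted p = 0.0498), and overlaps *Ro60*. In each of the 3 the control lay above every subclone, as it did for 37.6% of all genes tested. These lower calls held in fewer alternatives than the 3 leading higher ones, in 9, 7 and 5 of the 12 alternatives for *Usp37*, *Usp24* and *Uchl5*. Without #3, 0 genes of the families were called lower by edgeR and 6 fell under an unadjusted p of 0.05. Limma on log2(FPKM + 1) called 0 lower with 10 under that p. Over all genes, 103 were called lower without #3 and 879 by that limma fit, beside 777 in the main fit.

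**Figure D2:**
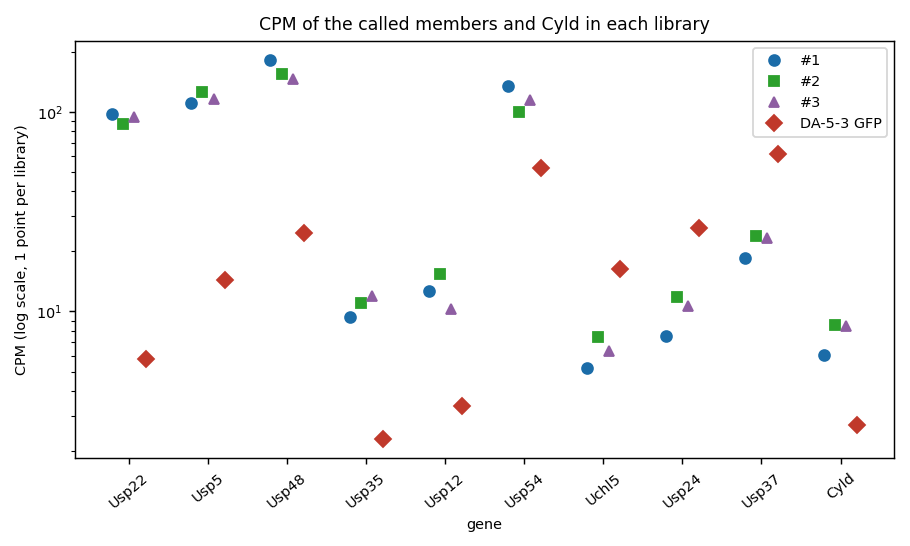
CPM on a log scale of the 9 called genes and *Cyld* in each of the 4 libraries, 1 point per library. The control (red diamond) lies below all 3 subclones for *Usp22*, *Usp5*, *Usp48*, *Usp35*, *Usp12*, *Usp54* and *Cyld*, and above all 3 for *Uchl5*, *Usp24* and *Usp37*.

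The promoters of 5 called genes are shown to let the start regions of genes that moved oppositely be compared. RefSeq sequences on the GRCr8 assembly, each from 250 bases before to 50 after the gene start and read on the gene's strand, were found for 45 of the 57 symbols. These coordinates are of GRCr8 and are not those of the deposited table. Capitals mark exact matches on either strand to a GC box, searched as GGGCGG, to a box of the CCAAT type, searched by those same letters, or to the core of sites for ETS factors, searched as CCGGAA on each strand. Also searched on both strands were the TATA element, with the letters TATAAA spelled out in full, then a site of estrogen-related receptors with the letters AAGGTCA and finally the palindromic element of basic helix-loop-helix factors, which reads CACGTG. The last 3 have no match in the 5 sequences below. Those of *Usp22* (chr10:46354890-46355189, minus strand), *Usp5* (chr4:159320907-159321206, minus strand) and *Usp48* (chr5:155083788-155084087, plus strand) belong to the genes called under every alternative. Those of *Usp37* (chr9:83533123-83533422, minus strand) and *Uchl5* (chr13:58070826-58071125, plus strand) belong to genes that fell.
Usp22: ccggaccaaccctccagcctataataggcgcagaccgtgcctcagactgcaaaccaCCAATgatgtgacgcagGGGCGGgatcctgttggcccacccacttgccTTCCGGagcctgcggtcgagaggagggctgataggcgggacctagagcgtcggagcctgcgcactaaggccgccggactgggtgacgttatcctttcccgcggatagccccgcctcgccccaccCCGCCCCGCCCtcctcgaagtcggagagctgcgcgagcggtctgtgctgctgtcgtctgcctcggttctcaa
Usp5: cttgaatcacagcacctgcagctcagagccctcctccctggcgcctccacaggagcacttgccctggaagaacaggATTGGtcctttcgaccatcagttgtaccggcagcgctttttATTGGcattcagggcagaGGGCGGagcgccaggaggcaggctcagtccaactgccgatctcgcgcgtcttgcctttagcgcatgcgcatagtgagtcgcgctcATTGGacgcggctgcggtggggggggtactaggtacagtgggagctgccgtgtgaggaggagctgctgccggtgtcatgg
Usp48: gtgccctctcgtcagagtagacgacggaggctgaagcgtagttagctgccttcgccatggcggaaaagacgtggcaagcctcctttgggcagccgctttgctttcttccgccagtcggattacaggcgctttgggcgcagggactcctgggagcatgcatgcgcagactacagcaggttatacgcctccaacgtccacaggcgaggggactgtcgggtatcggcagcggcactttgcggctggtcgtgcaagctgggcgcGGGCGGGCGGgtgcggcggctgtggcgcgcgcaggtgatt
Usp37: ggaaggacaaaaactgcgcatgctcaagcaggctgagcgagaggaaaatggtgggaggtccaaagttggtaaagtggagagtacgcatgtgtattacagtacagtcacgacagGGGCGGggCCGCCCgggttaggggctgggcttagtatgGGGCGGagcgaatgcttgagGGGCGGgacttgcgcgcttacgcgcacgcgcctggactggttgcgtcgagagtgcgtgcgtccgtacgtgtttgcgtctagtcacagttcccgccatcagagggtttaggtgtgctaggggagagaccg
Uchl5: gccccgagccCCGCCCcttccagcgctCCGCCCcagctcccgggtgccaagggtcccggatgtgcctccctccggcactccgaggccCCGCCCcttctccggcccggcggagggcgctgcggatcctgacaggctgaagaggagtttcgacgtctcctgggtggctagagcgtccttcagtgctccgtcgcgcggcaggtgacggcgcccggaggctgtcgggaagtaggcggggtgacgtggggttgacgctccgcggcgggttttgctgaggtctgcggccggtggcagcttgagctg

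The promoter of *Usp22* holds 3 GC boxes, 1 CCAAT box and 1 ETS core, where overlapping matches are counted singly. That of *Usp5* holds 3 CCAAT boxes, all on the opposite strand as ATTGG, and 1 GC box. The promoter of *Usp48* has 2 overlapping GC boxes within the 50 bases after the start and no other of the 6 motifs. Among the genes that fell, *Usp37* has 4 GC boxes and *Uchl5* has 3, with no CCAAT box in either. A GC box was present in 35 of the 45 promoters found (77.8%), in 5 of the 5 found for genes that rose and in 2 of the 2 for genes that fell, against 33.1% of all 33469 promoters of the same length. CCAAT boxes were found in 9 of the 45 (20%) against 37.5% of all promoters, and ETS cores in 16 (35.6%) against 15.0%. The remaining motifs had fewer matches, 3 promoters with the TATA element (14.2% of all), 1 with the estrogen-related receptor site (4.61% of all) and 5 with the basic helix-loop-helix element (6.42% of all). CG dinucleotides numbered a median of 27 per promoter in the 45 and 7 in all promoters, and *Usp54*, with 5, was an exception among the genes that rose. The set of all promoters was not matched to these genes in expression or gene type. Whether a contrast with it is particular to the families was not tested. *Otud6b*, *Usp44*, *Usp7*, *Usp12*, *Otud1*, *Otud7b*, *Usp49*, *Cyld*, *Usp43*, *Usp18*, *Usp24* and *Usp42* had no entry.

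*Cyld*, which removes lysine-63 and linear ubiquitin chains and so restrains NF-kB and MAP kinase signalling, was singled out by the study from these same libraries, so its direction here is not independent evidence. It was reported there as up-regulated, and the study's rule for differential expression was a DESeq2 adjusted p under 0.05. Its counts of 101, 151 and 152 in #1, #2 and #3 stood against 40 for DA-5-3 GFP, or 6.02, 8.54, 8.46 and 2.69 CPM. All 3 subclones were above the control, by 2.85-fold on the means (7.67 ± 1.43 CPM, SD, n = 3). The log2 fold change was 1.51 (SE 0.46) with an edgeR adjusted p of 0.0732 and a DESeq2 adjusted p of 0.0464, and the adjusted p ran from 0.0268 to 0.258 over the alternatives, of which 2 of 12 called the gene. Of 20 tested genes for *Cyld* substrates and the linear ubiquitin pathway, 1 rose and 0 fell in edgeR's test. That is 5% called, against 13.8% of all genes tested. An unadjusted p under 0.05 was found for 4 of the 20 and for 34.0% of all genes tested. The median log2 fold change of the 20 was 0.40. The one that rose was *Ikbkg*, the regulatory subunit of the IkB kinase complex, at 8.94, 13.0 and 13.8 CPM against 2.35 (log2 fold change 2.34, SE 0.48, edgeR adjusted p = 0.0276), and DESeq2 called 3.

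DESeq2 had an adjusted p for 13973 genes and called 21.5% of them. It called 19 of the 53 deubiquitinase genes, 11 higher and 8 lower, which included the 9 called by edgeR. *Cyld* was among the 10 that DESeq2 alone called. *Usp19*, whose main isoform is anchored in the endoplasmic reticulum, had the highest CPM of the families in each subclone, with 430.1, 283.0 and 404.9 against 162.7 (log2 fold change 1.20, SE 0.31, edgeR adjusted p = 0.0504, DESeq2 adjusted p = 0.00619). *Otud4*, an OTU enzyme, was at 16.9, 28.4 and 19.4 CPM against 6.73 (log2 fold change 1.68, SE 0.44, edgeR adjusted p = 0.0507). *Usp7*, which acts on Mdm2 and p53, had 110.0, 139.0 and 120.7 CPM against 67.2 (log2 fold change 0.87). *Usp30*, which sits on the mitochondrial outer membrane and counters mitophagy, had 73.2, 38.3 and 69.7 CPM against 26.2 (log2 fold change 1.21), and overlaps *Svop*. In these 4 the control was below every subclone, as for 38.1% of all genes tested, with the lowest subclone of *Usp30* closest to it.

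On the lower side DESeq2 alone called *Usp14*, *Usp47*, *Usp34*, *Uchl3* and *Uchl1*. *Usp14*, which trims ubiquitin chains at the proteasome, stood at 43.9, 54.0 and 40.2 CPM against 90.6 CPM (log2 fold change -0.98, SE 0.27, edgeR adjusted p = 0.0562). *Usp47*, which acts on DNA polymerase beta in base excision repair, was at 10.8, 18.5 and 17.2 CPM against 36.9 (log2 fold change -1.25, edgeR adjusted p = 0.0661). *Usp34*, known for acting on axin in Wnt signalling, was at 7.87, 13.5 and 11.3 CPM against 25.7 (log2 fold change -1.23, edgeR adjusted p = 0.0724). *Uchl3*, which releases ubiquitin and Nedd8 from their precursors, stood at 23.1, 11.1 and 22.5 CPM beside 50.2 (log2 fold change -1.41, SE 0.42, edgeR adjusted p = 0.0703). Here the control exceeded every subclone in all 5 genes, as it did for 37.6% of all genes tested. The order of the subclones differed: #2 was the lowest for *Uchl3* and the highest for the others.

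*Uchl1*, a ubiquitin hydrolase best known from neurons, had the highest FPKM of the families when the 4 libraries were averaged. Its level was 86.8 CPM in #1, 242.7 CPM in #2, 95.3 CPM in #3 and 352.7 CPM for DA-5-3 GFP, so that #2 lay apart from the other subclones and nearer to the control. The log2 fold change was -1.32 (SE 0.54) with an edgeR adjusted p of 0.14 and a DESeq2 adjusted p of 0.0419. Without #2, the subclone nearest the control for this gene, it was -1.95, a shift that removing the nearest value brings by itself. Subclone #2 also had the highest sum of fibroblast genes (214.8 FPKM), the part of which in the *Uchl1* level was not tested.

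Levels between genes can be compared per length. *Uchl1* (mean of the 4 libraries 180.2 FPKM), *Otub1* (144), *Usp19* (66.9), *Usp39* (44.2) and *Usp10* (40.4) were the first 5. The order of the first genes differed between libraries, since *Uchl1* led in #2 and in the control, *Otub1* led in #1 and #3, and *Usp19* (90.6 FPKM) stood above *Uchl1* (81.0 FPKM) in #1. *Otub1*, which binds ubiquitin-charged E2 enzymes and cuts lysine-48 chains, was at 141.2, 134.9 and 118.3 FPKM against 181.7 FPKM (log2 fold change -0.46, edgeR adjusted p = 0.186). *Usp39*, a spliceosome component without deubiquitinase activity, was nearly level at 47.2, 41.8, 42.5 and 45.1 FPKM (log2 fold change -0.04, edgeR adjusted p = 0.92), and its sign turned to 0.03 when libraries were scaled by size only. *Usp10*, which binds the stress granule protein G3bp1, had 44.6, 40.4 and 45.6 FPKM against 31.1 FPKM (log2 fold change 0.49, edgeR adjusted p = 0.199). The neighbours *Usp39* and *Usp10* overlapped in their subclone values, whereas each value of *Otub1* was above each value of *Usp19*.

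**Figure D3:**
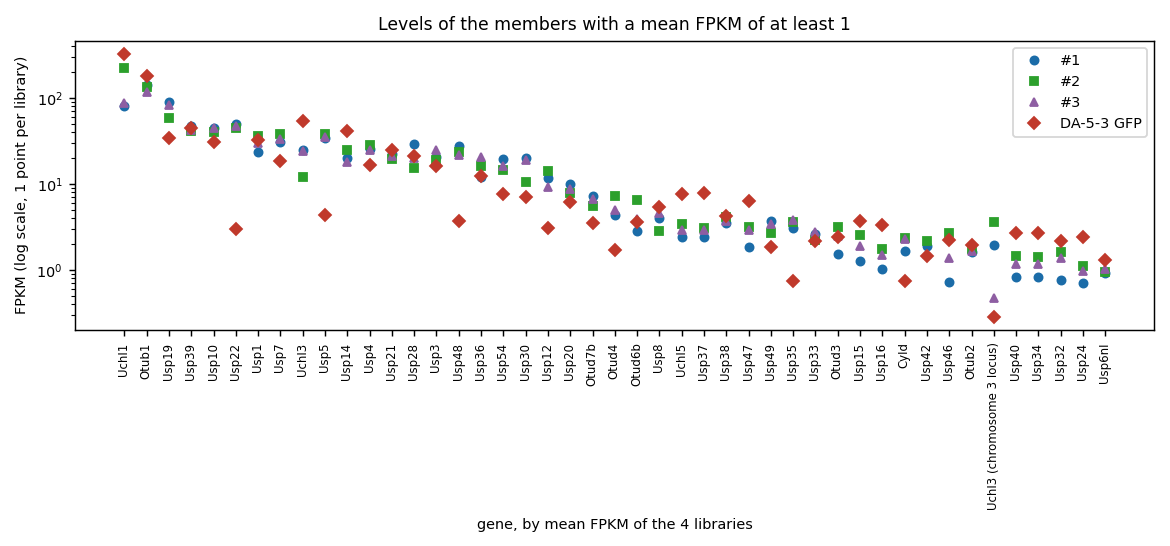
FPKM on a log scale of the genes with a mean of at least 1 FPKM, ordered by the mean of the 4 libraries, with 1 point per library. *Uchl1* and *Otub1* lead in DA-5-3 GFP (red diamond) at 327.1 and 181.7 FPKM, and the red diamonds of *Usp22*, *Usp5* and *Usp48* lie far below the 3 subclones.

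The summed FPKM of the 58 loci was 846.3, 941.9 and 819.8 in #1, #2 and #3 and 967.8 in DA-5-3 GFP, a ratio of 0.90 of the subclone mean to the control. Summed CPM, which is not divided by length, went the other way at 2608, 2583 and 2579 against 2232 (ratio 1.16). Short genes such as *Uchl1* and *Uchl3* weigh more in the first sum. In the control, the first 5 genes (*Uchl1*, *Otub1*, *Uchl3*, *Usp39* and *Usp14*) held 67.1% of the summed FPKM, and the first 5 of each subclone held 48.5%, 53.7% and 46.7%. *Usp19* and *Usp22* were among the first 5 in each subclone and in neither case in the control. The tested genes of the families were long, with a median of 3827 bases of exon against 2096 over all genes tested. The 6 that rose had a median length of 3114.5 bases and the 3 that fell one of 7642 bases. Across genes, which are not independent replicates, Spearman's rho of fold change and length was -0.22 over the 53 and 0.20 over the 15028. Across the 3 subclones, #1 was the lowest for 29 of the 53 and #2 the highest for 29, beside 37.2% and 39.5% of all genes tested.

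Grouped by what the enzymes act on, only the genes named with a call passed edgeR's test, and no group had all its genes called. Of 5 tested USP genes for histone H2A or H2B, *Usp22* rose and the others were not called (2 under an unadjusted p of 0.05 in all, median log2 fold change 0.42). For free chains and ubiquitin precursors, 4 symbols gave 5 tested loci, since both *Uchl3* loci were counted. Of these *Usp5* rose in edgeR's test, 3 had an unadjusted p under 0.05, and DESeq2 called 1 higher and 2 lower. Their median of 0.70 includes the second *Uchl3* locus, at 2.77 with only 3 counts in the control, beside -1.41 for the main *Uchl3* locus and -1.32 for *Uchl1*. Both proteasome-bound enzymes had lower values in the subclones, *Uchl5* with a call and *Usp14* without one. Among 6 genes of the p53, Mdm2 and DNA damage pathways 0 were called by edgeR, 2 had an unadjusted p under 0.05, and the median was -0.05. The 3 tested genes of NF-kB and innate immune signalling gave 0 calls by edgeR and 3 unadjusted p under 0.05, a threshold that 34.0% of all genes passed. Their median of 1.51 is the value of *Cyld*, which the study singled out from these same libraries, so this group is not independent evidence. At endosomes, mitochondria and the endoplasmic reticulum, 0 of 6 were called, 2 had an unadjusted p under 0.05, and the median was 0.39.

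Pairs of close relatives, chosen after the values were seen, were set side by side. Of 15 such pairs, 13 had both genes tested, 5 had 1 called gene and 0 had both called by edgeR, and the sign of the fold change was shared in 7 and opposite in 6. EdgeR called 17% of the 53 tested deubiquitinase genes and 13.8% of all genes tested. At such shares, calls in 1 gene of a pair do not show that relatives moved apart. *Usp12* made up 94.1%, 84.1% and 87% of the summed FPKM of *Usp12* and *Usp46* in #1, #2 and #3 and 58.1% in the control. *Usp46* itself was uneven, with 3.88, 14.2 and 7.51 CPM beside 11.98 (log2 fold change -0.49, edgeR adjusted p = 0.624). *Usp35* held 46.8%, 46.5% and 50.8% of its pair with *Usp38* against 15%, and *Usp38* had a log2 fold change of -0.15. *Usp5* was the main gene of its pair with *Usp13* everywhere, at 96.5% in the control and 99.1% to 99.6% in the subclones. *Usp54* rose while *Usp53* had a log2 fold change of -1.54 (SE 0.55, edgeR adjusted p = 0.105), and *Usp37* fell while its relative *Usp29* was at -1.73 (SE 0.75, edgeR adjusted p = 0.157). Reads that fit both members of a pair could be split between them by the counting, so the shares carry that uncertainty.

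**Figure D4:**
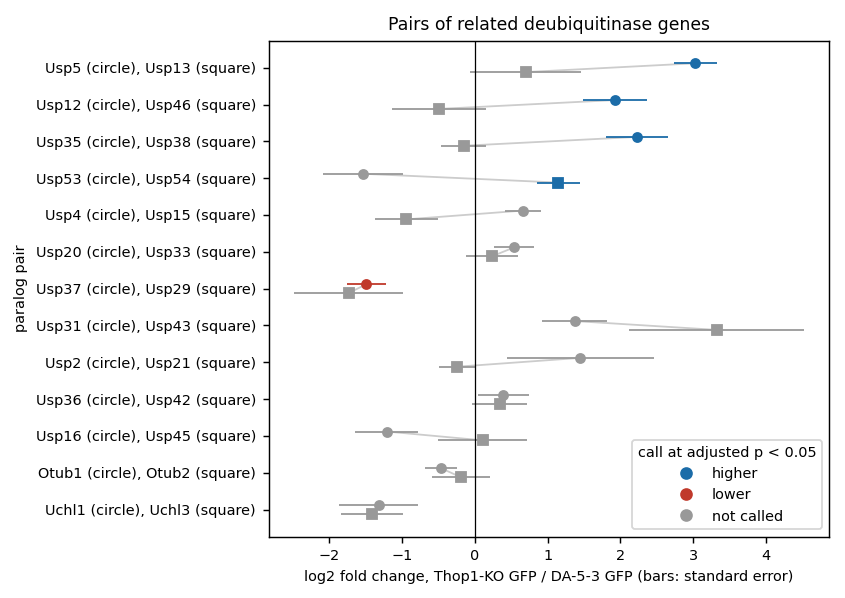
Log2 fold change with its standard error for the 13 pairs of related genes in which both were tested, the gene named first as a circle and the other as a square. *Usp5*, *Usp12*, *Usp35* and *Usp54* are called higher and *Usp37* lower, each beside a relative that is not called.

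Several deubiquitinases work in complexes, and some partner genes were called as well, as were 13.8% of all genes tested. The partners were chosen after the values were seen, so their calls are no independent evidence of complexes changing together. *Atxn7l3*, a subunit needed for the activity of *Usp22* in SAGA, was at 72.2, 65.0 and 72.0 CPM against 8.07 CPM (log2 fold change 3.11, SE 0.31, edgeR adjusted p = 0.00678). *Eny2*, another subunit of that module, was at 9.96, 20.02 and 12.1 CPM against 32.3 (log2 fold change -1.20, edgeR adjusted p = 0.0996), and *Atxn7* had a log2 fold change of -0.25. Over the SAGA complex, 2 of 21 tested genes rose (*Atxn7l3* and *Supt7l*), 1 fell (*Taf6l*) and the median was -0.17. The called share of that list was 14.3%, beside 13.8% of all genes tested. *Wdr20*, which binds *Usp12*, had 26.0, 23.2 and 26.4 CPM against 8.01 (log2 fold change 1.65, edgeR adjusted p = 0.0276), and *Wdr48* was not called (0.47, edgeR adjusted p = 0.251). *Spata2*, which links *Cyld* to the linear ubiquitin ligase, rose from 12.3 CPM to 55.1, 56.1 and 51.5 CPM (log2 fold change 2.14, edgeR adjusted p = 0.0108). *Gmps*, an activator of *Usp7*, fell from 65.7 CPM to 8.65, 19.2 and 12.5 CPM (log2 fold change -2.29, edgeR adjusted p = 0.0203) while *Usp7* was higher in each subclone than in the control. For the proteasome, *Psmd14*, the deubiquitinase of its lid, fell (log2 fold change -1.08, edgeR adjusted p = 0.0381) and *Adrm1*, the partner of *Uchl5*, was at -0.67 without a call (edgeR adjusted p = 0.123).

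**Figure D5:**
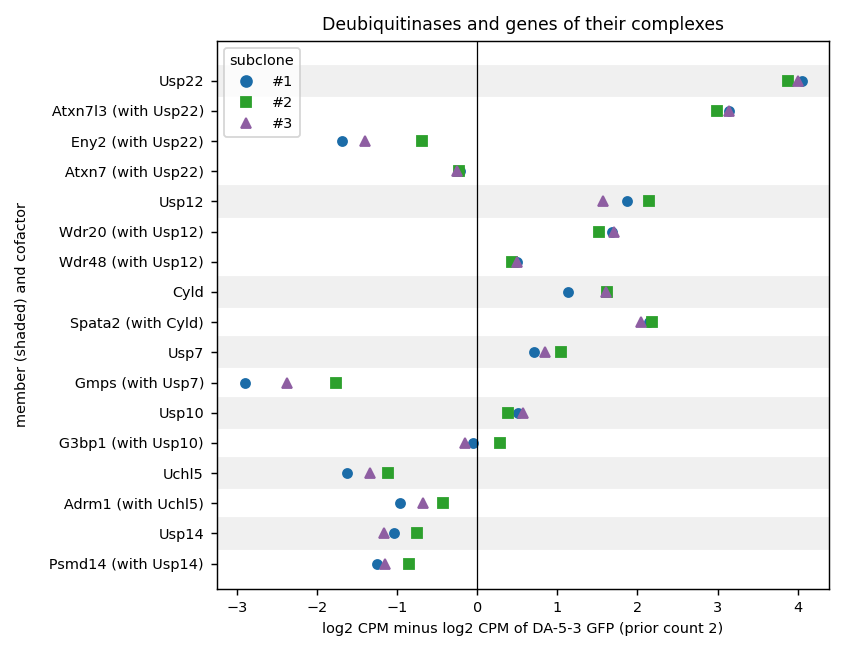
Difference in log2 CPM of each subclone from DA-5-3 GFP for 7 deubiquitinases (shaded) and, under each, genes of its complex, chosen after the values were seen. *Atxn7l3* lies near *Usp22* on the right in all 3 subclones, whereas *Gmps* lies on the left of 0 under *Usp7*, which is on the right.

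Several low genes had fold changes that their counts hardly resolve. *Otud1* had 17, 19 and 26 counts against 2, a rate ratio of 8.79 with an exact 95% counting interval from 2.33 to 74.2 (edgeR adjusted p = 0.091). *Usp43* had 27, 11 and 36 counts against 2, a ratio of 10.5 (2.80 to 88.2, edgeR adjusted p = 0.107). The second *Uchl3* locus, 693 bases of exon on chromosome 3, had 23, 45 and 6 counts against 3, a ratio of 6.99 (2.30 to 34.7, edgeR adjusted p = 0.212), and the subclones differed from each other by 7.62-fold there. Its reads may be shared with the *Uchl3* gene on chromosome 15. The intervals cover counting error only. Not tested for low counts were *Usp25* (0, 1, 8 and 5 counts in #1, #2, #3 and the control), *Otud7a* (2, 0, 4 and 5), *Usp44* (3, 5, 1 and 0), *Usp50* (2, 1, 0 and 0) and *Usp18*, the protease of the interferon-induced modifier Isg15, with 0 counts in every library, which allows up to 3 counts in each. The other genes without a call lay between log2 fold changes of -1.23 and 1.45, among them *Usp28* at 0.01, *Otud3* at 0.00 and *Usp1*, which acts on Fanconi anemia and PCNA proteins, at -0.11.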

How the data were processed

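Poly(A) RNA of 1 DA-5-3 GFP and 3 *Thop1*-KO GFP libraries was sequenced from a kit that does not mark strand. The authors cleaned the reads of noise and adaptors (FASTX toolkit), and the submitters' processing notes name HISAT2 2.0.5 and featureCounts 1.5.0-p3. Genome build and annotation version are not given in the sources used here. The authors deposited raw counts per gene and FPKM values, which are those counts per gene length and per library, with 1 scaling factor for each library.

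Tests of the counts used edgeR 4.0.16 under R 4.3.3 (filterByExpr with a minimum count of 10, TMM, quasi-likelihood test, Benjamini-Hochberg adjustment over all genes tested), and the test was checked on simulated data. Libraries held 15405499 to 17936544 counts. A chi-square per degree of freedom of 22.4 to 184 between pairs showed no duplicated library. The subclones are described as separately picked colonies, and p-values measure only the spread between them. Counts of up to 3 were taken as the floor.

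Alternatives were DESeq2 1.42.0, DESeq2's size factors, upper quartile or library size alone in edgeR, no filter, 10 counts in every library, a loess correction for length (span 0.3), limma 3.58.1 with a pseudocount of 1 or 0.1 on log2 FPKM, an unadjusted p under 0.05 with a fold of 2, and leaving out each subclone. Genes named were *Thop1*, *Usp22*, *Cyld*, those called by edgeR or by DESeq2, the 3 lowest and 3 highest without a call, the 5 with the highest mean FPKM, the 3 with the widest subclone ratio and those not tested, with called genes of the outside lists. The genes and lists were chosen with earlier results of these data known, and the pairs, partners and motifs after the values were seen, as were the relatives and partners without a call and *Usp28*, *Otud3* and *Usp1*. Python 3.11.15, pandas 2.3.3, numpy 2.4.6, scipy 1.17.1 and matplotlib 3.10.9 made the tables and figures. Some genes of the outside lists are not reported here.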

Additional observations from a re-analysis of the deposited data

How the results depend on the processing

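No paired analysis was possible because the control has 1 library. *Usp22*, *Usp5* and *Usp48* were called in every alternative run. The number of deubiquitinase genes called was 6 higher and 3 lower. It was 11 and 8 with DESeq2, and 13 and 10 with an unadjusted p under 0.05 and a fold of 2. The lower calls were 1 with library size only, 5 with upper quartile scaling and 7 after the length correction. That correction gave 5 higher calls, so that 41.7% of calls were higher instead of 66.7%. The lower calls were 0 with limma on log2(FPKM + 1) and on log2(FPKM + 0.1), where 10 and 7 had an unadjusted p under 0.05. Over all genes those limma fits called 879 and 595 lower. Leaving out 1 subclone gave 3 to 16 higher and 0 to 11 lower calls, with the low ends without #3 (6 lower genes at an unadjusted p under 0.05) and the high ends without #2. Over all genes the calls were 1295 higher and 777 lower, and ran from 354 to 3096 and from 103 to 2476 without 1 subclone. They were 2443 and 1597 with the unadjusted rule, and 1987 were higher with DESeq2. The median log2 fold change of the tested deubiquitinase genes was 0.24, and -0.10 after the length correction. The ratio of summed levels was 0.90 in FPKM and 1.16 in CPM, and the *Cyld* and linear ubiquitin list went from 1 to 3 calls with DESeq2. *Usp39* turned from -0.04 to 0.03 with library size only, which moved the median of all genes from 0.06 to 0.13. Over the 28 named genes, 275 other values kept their direction and side of the threshold, 34 gained a call and 22 lost it. Apart from the settings whose construction changes the samples or the number of calls, the cause was not tested. Depth limits the low genes, such as *Otud1* and *Usp43* with 2 counts in the control.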

Other observations

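Family members on the X chromosome lie outside the rule. *Usp9x*, whose substrates include regulators of apoptosis and polarity, was at 54.1, 91.8 and 81.0 CPM in #1, #2 and #3 and at 119.8 CPM in DA-5-3 GFP (log2 fold change -0.66, edgeR adjusted p = 0.199). *Usp27x*, a relative of *Usp22*, was at 9.42, 5.94 and 10.1 CPM in the subclones and at 3.09 CPM in the control (log2 fold change 1.45, SE 0.49, edgeR adjusted p = 0.0928). *Usp51*, the other relative, had 0, 3 and 0 counts against 8 and was not tested. *Usp11* was uneven among the subclones, with 54.5, 17.0 and 38.1 CPM beside 23.4 in the control. *Otud5* had a log2 fold change of -0.22 and *Usp26* one of 0.32, while *Otud6a* had at most 3 counts.

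A list of deubiquitinases of other names and families, chosen with earlier results of these data known, was also of both directions. It took in related genes, such as *Cops5*, *Cops6* and *Uspl1*, whose products are not known as ubiquitin-cleaving enzymes, so its share is one of the list. Of 25 tested, 5 rose and 3 fell (32% called, against 13.8% of all genes tested). *Bap1*, which removes ubiquitin from histone H2A, rose from 81.3 CPM in DA-5-3 GFP to 256.3, 239.2 and 237.9 CPM (log2 fold change 1.59, edgeR adjusted p = 0.0137). *Otulin*, which cuts linear chains, had 14.6, 22.0 and 13.5 CPM against 4.44 (log2 fold change 1.91, edgeR adjusted p = 0.0413). *Pan2* rose as well (log2 fold change 1.34), although it is a deadenylase subunit with a pseudo-USP domain. *Mindy2* had 38, 63 and 27 counts against 2, a rate ratio of 18.1 with a 95% counting interval of 4.92 to 151.4. *Tnfaip3*, an NF-kB inhibitor, had 13, 18 and 27 counts against 0, which is at least 5.44-fold higher than the floor of 3 counts in the control library. *Josd2* (-2.02), *Brcc3* (-1.67) and *Psmd14* (-1.08) fell on the log2 scale.

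Among 14 tested cofactors of deubiquitinases, 4 rose and 3 fell (50% called, against 13.8% of all genes tested), a list chosen with earlier results of these data known. *Hcfc1*, a partner of *Bap1*, went from 13.2 CPM to 110.6, 146.9 and 116.4 CPM (log2 fold change 3.24, edgeR adjusted p = 0.00693), and *Asxl1*, another partner of *Bap1*, rose with a log2 fold change of 1.25. *Babam2* (-1.54) and *Abraxas1* (-1.88), which are subunits of the complexes of *Brcc3*, fell as it did, while the further subunits *Babam1* (-0.36, edgeR adjusted p = 0.437) and *Abraxas2* (-0.83, edgeR adjusted p = 0.136) were not called.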
